A study of Mus musculus with 7 samples.

Results

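The glucocorticoid receptor and its usual target genes were described in contused mouse spinal cord. The set is 9 genes, taken by symbol with no measured value in the rule: *Nr3c1*, *Fkbp5*, *Tsc22d3*, *Sgk1*, *Zbtb16*, *Dusp1*, *Klf9*, *Mt1* and *Mt2*. Each symbol matched 1 of the 21965 Ensembl genes of the count table, and all 9 passed the filter on low counts, which left 15743 genes for testing. RNASeq libraries were made from the injury epicenter 3 days after a moderate contusion (50 kdyn) at T9, 1 library per mouse. The mutant group carries the *Arntl* tm1Bra allele on a C57Bl/6J background, a constitutive whole-body deletion of the clock factor BMAL1 (labelled Arntl knockout, here *Bmal1*-/-), with 2 females and 1 male. The control group is WT C57Bl/6J with 2 females and 2 males, 1 of them a littermate of mutants and the others purchased. All 7 were young adults that received the same anesthetic, analgesic and antibiotic, and tissue was taken in the early light phase. Uninjured cord and hormone levels were not analysed here, so each comparison is among injured mice.

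Glucocorticoids leave the adrenal cortex after stress and in a daily rhythm, enter cells and bind a receptor that chaperones hold in the cytoplasm. The bound receptor, encoded by *Nr3c1*, moves to the nucleus, binds palindromic DNA elements and raises or represses nearby genes. Its induced targets include a chaperone that lowers hormone binding (*Fkbp5*), inhibitors of inflammatory signaling (*Tsc22d3*, *Dusp1*), the kinase SGK1, the transcription factors *Zbtb16* and *Klf9*, and the metal-binding metallothioneins *Mt1* and *Mt2*. Several of them have other inducers as well: growth factors and cell stress for *Dusp1* and *Sgk1*, the clock and thyroid hormone for *Klf9*, and zinc and oxidative stress for *Mt1* and *Mt2*.

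Promoter windows were read to see which members carry letters of the elements named for these inducers. RefSeq windows on GRCm38.p6, from 250 bases before to 50 bases after a start site, matched 7 of the 9 members, with 14 windows in all, 6 of them for *Sgk1* and 3 for *Tsc22d3*. *Nr3c1* and *Zbtb16* had no entry. Both strands were searched for the glucocorticoid response element (GRE), which is AGAACA and TGTTCT with any 3 bases between them, its core ACANNNTGT, which lies inside it, the E-box CACGTG that clock factors bind, the metal response element (MRE) as TGCACNC or TGCGCNC, and the cyclic AMP response element (CRE) TGACGTCA. The whole GRE was found in 3 of 32851 windows of all genes (0.00913%), and 1 of the 3 was an *Sgk1* window, where it began at -189 relative to the start. The core was in 6.85% of all windows, and among the members in those of *Mt1* and in 2 of *Sgk1*, in 1 of them as the inside of the whole GRE. The E-box was in 7.15% of all windows and among the members in those of *Fkbp5*, *Dusp1* and the *Sgk1* window with the GRE. The CRE was in 1.79% of all windows and in that of *Dusp1*. *Mt1* had 3 MREs and *Mt2* had 4, where 25.7% of all windows held at least 1 and 1.97% at least 3. One MRE each was in the window of *Dusp1* and in 1 of *Sgk1*. *Klf9* and the 3 windows of *Tsc22d3* held none of these letters, which says nothing of elements outside the windows.

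The windows of *Sgk1*, *Mt1* and *Mt2* are shown because the largest difference of the set and the pair of genes that varied together are theirs, and that of *Fkbp5*, the standard readout of the receptor, for its E-box. Capitals mark the GRE and E-box in *Sgk1* (GRCm38, chr10:21993640-21993939, plus strand), the MREs in *Mt1* (chr8:94178839-94179138, plus strand) and *Mt2* (chr8:94172368-94172667, plus strand) and the E-box in *Fkbp5* (chr17:28486100-28486399, minus strand).
Sgk1: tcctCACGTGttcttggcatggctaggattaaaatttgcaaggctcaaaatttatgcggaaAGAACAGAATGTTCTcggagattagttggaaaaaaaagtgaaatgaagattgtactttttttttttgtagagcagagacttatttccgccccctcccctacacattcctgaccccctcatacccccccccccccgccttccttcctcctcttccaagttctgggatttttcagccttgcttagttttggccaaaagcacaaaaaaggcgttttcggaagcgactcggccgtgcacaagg
Mt1: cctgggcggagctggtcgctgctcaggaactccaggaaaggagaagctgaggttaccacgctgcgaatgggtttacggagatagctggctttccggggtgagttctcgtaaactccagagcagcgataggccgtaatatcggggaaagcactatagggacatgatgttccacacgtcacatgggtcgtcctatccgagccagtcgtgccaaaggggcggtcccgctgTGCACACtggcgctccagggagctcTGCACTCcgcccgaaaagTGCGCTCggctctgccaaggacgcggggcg
Mt2: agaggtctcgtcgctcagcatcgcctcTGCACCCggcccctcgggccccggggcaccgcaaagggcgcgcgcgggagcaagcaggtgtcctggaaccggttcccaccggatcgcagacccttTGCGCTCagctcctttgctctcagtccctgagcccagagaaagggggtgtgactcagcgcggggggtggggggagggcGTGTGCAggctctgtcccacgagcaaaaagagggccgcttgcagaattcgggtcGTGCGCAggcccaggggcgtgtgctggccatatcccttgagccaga
Fkbp5: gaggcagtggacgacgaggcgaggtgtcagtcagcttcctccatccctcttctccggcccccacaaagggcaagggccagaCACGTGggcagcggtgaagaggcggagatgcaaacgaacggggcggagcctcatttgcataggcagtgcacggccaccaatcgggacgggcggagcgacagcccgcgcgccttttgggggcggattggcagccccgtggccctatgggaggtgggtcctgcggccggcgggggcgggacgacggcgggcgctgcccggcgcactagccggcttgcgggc

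The libraries held 38529644 to 44096737 counts. The targeted gene was read first. *Arntl* was counted at 24.1, 24.2 and 22.5 CPM (counts scaled to the same library total, with TMM factors) in replicates 1 to 3 labelled *Bmal1*-/- and at 14.7, 15.3, 11.9 and 13.4 CPM in WT replicates 1 to 4. The count over the whole gene thus went against the label (log2 fold change 0.77, SE 0.10, adjusted p = 0.0155 from edgeR). That call was lost without each mutant replicate in turn and without WT replicate 4, while the estimate stayed at 0.71 to 0.82 in each of the 7 fits that leave out 1 library. The clock outputs *Nr1d1* and *Dbp*, direct targets of BMAL1 named here after their values were seen, ran with the label. *Nr1d1* had 5.31, 5.41 and 7.28 CPM in the mutant replicates against 29.2 to 36.8 CPM in WT (adjusted p = 0.000456 from edgeR), and *Dbp* had 8.72, 7.80 and 8.83 against 25.3 to 39.3 CPM (adjusted p = 0.00328 from edgeR). Gene counts add reads of all exons and do not show whether the deleted stretch is missing, so groups are named as labelled (mutant for short) and a gene called higher or lower is so in the mice with the *Bmal1*-/- label, set against WT. WT replicate 3, a male, lay far from the remaining WT mice in a principal component analysis (51.4 on the first component against 10.2 to 19.5). In the cell type markers, summed CPM did not overlap between genotypes for 8 skeletal muscle genes (6.20 to 7.61 labelled *Bmal1*-/-, 47.9 to 70.4 WT), 5 red cell genes (26.1 to 60.0 against 149 to 451), 8 endothelial genes (382 to 444 against 462 to 772), 8 pericyte genes (396 to 489 against 494 to 575), 8 Schwann cell genes (322 to 422 against 449 to 763), 8 astrocyte genes (16200 to 18700 against 11000 to 15500) and 8 neuronal genes (4480 to 5540 against 1710 to 4450). The sums of the oligodendrocyte, fibroblast, microglia, macrophage and neutrophil lists overlapped. By gene, groups did not overlap for 4 of 8 neuronal, 3 of 8 pericyte, 5 of 8 endothelial and 5 of 8 astrocyte markers. The same held for 6 of 8 Schwann cell markers, all 8 of muscle and all 5 of red cells, beside 26.9% of all genes. In the lists with overlapping sums it held for 0 to 2 of 8. Sums weigh abundant genes most, and some lists were mixed in sign. In the mutant libraries 5 astrocyte markers were higher and 3 lower, 3 pericyte markers higher and 5 lower, and 1 Schwann cell marker higher and 7 lower. *Gfap* alone had 10020 to 12650 CPM there. *Aldh1l1* (log2 fold change -0.47) and *Abcc9* (0.26) ran against their list's sum with groups that did not overlap. No marker was at 0 in all libraries, the neuronal, astrocyte and oligodendrocyte markers of the labelled tissue included. The part of cell makeup in the results below was not tested. In bulk RNA fewer cells of a type and less RNA per cell cannot be told apart.

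None of the 9 genes passed an adjusted p of 0.05 between genotypes in edgeR's quasi-likelihood fit over all genes, in which 1.57% of the 15743 genes did. At an unadjusted p under 0.05 there was 1, *Sgk1*, where 20.9% of all genes reached that level. Of the 9 members, 5 were higher and 4 lower in the mutant libraries, where 48.9% of all genes were higher. Their median difference was 0.19 on the log2 scale, beside -0.0057 over all genes tested. That median is the value of *Mt1*, which varied together with *Mt2*. The groups did not overlap for *Sgk1* and *Nr3c1*, 2 of 9, where 26.9% of all genes had groups that did not overlap. DESeq2 called 1 member, *Sgk1*, and 9.61% of all genes, with 3 members and 24.8% of all genes at an unadjusted p under 0.05. Limma-voom called none. The typical size of a difference, a median absolute log2 fold change of 0.19, lay near the 0.176 of all genes.

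**Figure D1:**
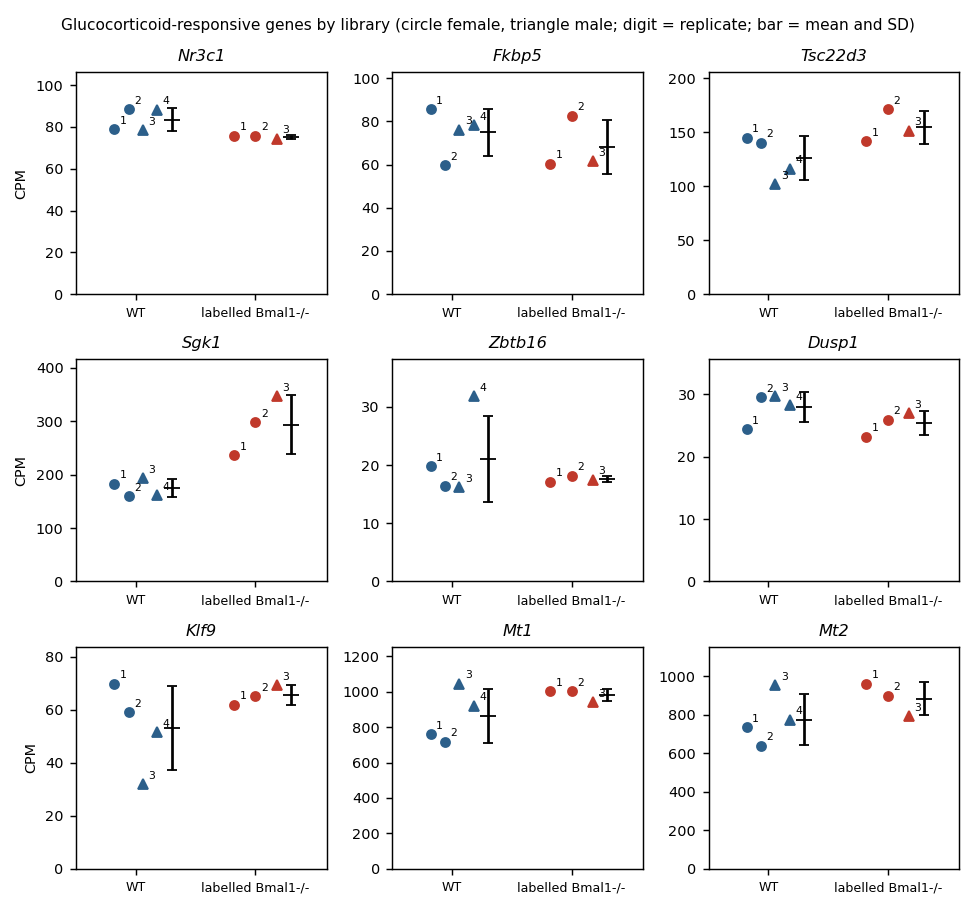
CPM of each of the 9 genes (y axis, from 0) in the 4 WT libraries and the 3 libraries labelled *Bmal1*-/-, with circles for females, triangles for males, the replicate number beside each point and bars for the mean and SD. *Sgk1* and *Nr3c1* are the panels in which the groups do not overlap, and *Klf9* in WT replicate 3 (31.9 CPM) and *Zbtb16* in WT replicate 4 (31.8 CPM) lie away from their groups.

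The receptor itself was expressed at nearly the same level in each mutant library. *Nr3c1* (ENSMUSG00000024431, chromosome 18 from 39410545 to 39519421, minus strand, GRCm38) had 75.9, 75.8 and 74.3 CPM in replicates 1 to 3 labelled *Bmal1*-/-. The WT libraries had 78.8, 88.6, 78.4 and 88.3 CPM. All 3 mutant values lay under the lowest WT value, though the gap was narrow beside the spread in WT. The means were 75.3 ± 0.91 (SD, n = 3) and 83.5 ± 5.68 CPM (SD, n = 4). The log2 fold change was -0.15 with a 95% interval from -0.302 to 0.004, and it did not pass (adjusted p = 0.248 from edgeR). It was -0.18 to -0.12 over the 15 alternatives and was called in none.

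*Fkbp5*, the co-chaperone that receptor activity induces and that in turn dampens the receptor, gave no separation of the genotypes. It (ENSMUSG00000024222, chromosome 17 from 28399094 to 28517527, minus strand) had 60.3, 82.7 and 61.7 CPM in the mutant replicates. WT replicates 1 to 4 had 85.8, 59.6, 76.2 and 78.2 CPM. Mutant replicates 1 and 3 and WT replicate 2 formed the low end and the other 4 libraries the high end, so that each genotype held both. The log2 fold change was -0.13 (SE 0.155, 95% interval -0.498 to 0.228, adjusted p = 0.598 from edgeR). The interval leaves room for a level 0.708 to 1.17 times that of WT, and the estimate ran from -0.30 without mutant replicate 2 to -0.053 without mutant replicate 1. The 3 tested genes whose levels followed it most closely were *Rsl1*, *4921536K21Rik* and *Rsad2*, with root mean square differences of 0.104, 0.107 and 0.109 between the centred log2 CPM of the 7 libraries, where *Fkbp5* itself spanned 0.525.

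*Tsc22d3*, which encodes the leucine zipper protein GILZ that restrains NF-kB and AP-1, was higher on average in the mutant libraries but did not pass. It (ENSMUSG00000031431, chromosome X from 140539528 to 140600659, minus strand) had 141, 171 and 151 CPM in the mutant replicates. The WT libraries had 145, 140, 102 and 116 CPM. The ranges overlapped, with mutant replicate 1 under WT replicate 1, and the lowest values were those of the 2 WT males. The means were 155 ± 15.3 (SD, n = 3) and 126 ± 20.4 CPM (SD, n = 4). They differed by 0.30 on the log2 scale (95% interval -0.0216 to 0.619, adjusted p = 0.259 from edgeR). Its closest companions by the same measure were *Moap1*, *Hr* and *Clmp*, at 0.0647, 0.0698 and 0.0751, against its own span of 0.752.

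*Sgk1* was the member with the largest difference. The kinase it encodes regulates ion channels and transporters and, through FOXO factors, cell survival. The gene (ENSMUSG00000019970, chromosome 10 from 21882184 to 21999903, plus strand) had 236, 298 and 347 CPM in replicates 1 to 3 labelled *Bmal1*-/-. In WT it had 183, 160, 194 and 162 CPM. Every mutant library lay above every WT library, in both sexes, and the lowest mutant value was above the highest WT value by more than the WT libraries differed among themselves. The means were 294 ± 55.4 (SD, n = 3) and 175 ± 16.6 CPM (SD, n = 4). This was a 1.68-fold higher level (95% interval 1.34 to 2.10), or a log2 fold change of 0.75 (SE 0.138), ranked 250 of 15743 by p, and it missed the threshold (adjusted p = 0.0519 from edgeR). It passed without WT replicate 3 (0.80, adjusted p = 0.0281 from edgeR) and in DESeq2 (0.75, adjusted p = 8.61e-05), and over all 15 alternatives the log2 fold change stayed between 0.61 and 0.89, with adjusted p up to 0.36. Within sex the difference in mean log2 CPM was 0.63 in females and 0.97 in males. Counts per gene do not separate the 6 start sites, so that which transcript differed, and whether it starts at the window with the GRE, was not tested. The related kinase gene *Sgk3* had a log2 fold change of -0.04 (adjusted p = 0.828 from edgeR), with 30.6 to 34.6 CPM against 29.9 to 38.8.

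*Zbtb16*, which encodes the zinc finger repressor PLZF, was the least abundant member and its sign rested on 1 library. It (ENSMUSG00000066687, chromosome 9 from 48654297 to 48836222, minus strand) had 17.1, 18.2 and 17.5 CPM in the mutant replicates. WT replicates 1 to 3 had 19.8, 16.5 and 16.3 CPM and replicate 4 had 31.8. With all libraries the log2 fold change was -0.26 (95% interval -0.819 to 0.297, adjusted p = 0.507 from edgeR), and without WT replicate 4 it was 0.0073. *Plin4*, a lipid droplet gene induced by glucocorticoids and named here after its values were seen, also had its highest WT value in that library, at 40.9 CPM against 18.4, 12.9 and 11.2 in WT replicates 1 to 3. Its mutant values were 38.1, 67.2 and 56.1 CPM, with a log2 fold change of 1.37 that did not pass (adjusted p = 0.175 from edgeR).

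*Dusp1*, a phosphatase that switches off MAP kinases, varied little. It (ENSMUSG00000024190, chromosome 17 from 26505590 to 26562128, minus strand) had 23.2, 25.9 and 26.9 CPM in the mutant libraries and 24.4, 29.5, 29.7 and 28.2 CPM in WT. The groups overlapped through WT replicate 1. The log2 fold change was -0.14 (95% interval -0.362 to 0.0787, adjusted p = 0.382 from edgeR) and was -0.080 without mutant replicate 1. Exons of *Ergic1* on the opposite strand overlap those of *Dusp1*, and the strand setting of the counting is not given in the sources used here, which leaves its level uncertain.

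*Klf9*, a Kruppel-like factor induced by glucocorticoids and regulated by the clock, had the widest spread in WT after *Zbtb16*. It (ENSMUSG00000033863, chromosome 19 from 23141226 to 23168134, plus strand) had 61.9, 65.1 and 69.3 CPM in the mutant libraries. WT had 69.9, 59.1, 31.9 and 51.6 CPM. WT replicate 3 was far under all others, and the highest value of all was in WT replicate 1. The log2 fold change was 0.30 (95% interval -0.243 to 0.846, adjusted p = 0.438 from edgeR) and was 0.12 without WT replicate 3 and 0.46 without WT replicate 1. WT replicate 3 also had the lowest sum of neuronal markers, 1709 CPM against 3308 to 4454 in the other WT libraries. Its sum of macrophage markers was the highest, 10500 against 4359 to 6756. The part of this in the *Klf9* level was not tested.

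**Figure D2:**
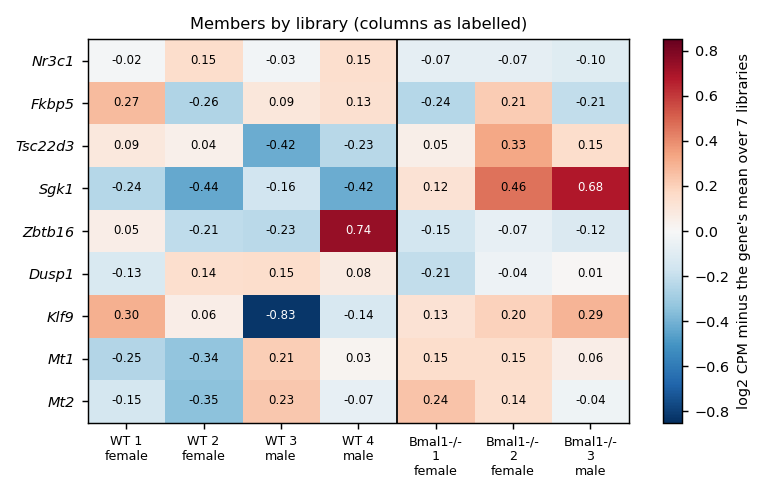
Log2 CPM of each member (rows) in each library (columns, WT left of the line and labelled *Bmal1*-/- right of it) minus that gene's mean over the 7 libraries, with red above and blue below. *Sgk1* runs from -0.44 to -0.16 in WT and from 0.12 to 0.68 in the mutant libraries, while *Fkbp5*, *Klf9* and *Zbtb16* vary within a genotype as much as between them.

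The metallothioneins were the most abundant members and varied together across libraries. *Mt1* (ENSMUSG00000031765, chromosome 8 from 94179082 to 94180327, plus strand) had 1003, 1003 and 941 CPM in the mutant libraries and 762, 718, 1046 and 921 CPM in WT. *Mt2* (ENSMUSG00000031762, chromosome 8 from 94172664 to 94173568, plus strand) had 961, 897 and 791 CPM against 733, 638, 951 and 773 CPM. For both, the WT females were lowest and WT replicate 3 was the highest WT library. The ratio of *Mt1* to *Mt2* CPM stayed between 1.04 and 1.19, and the pair took 0.137% to 0.203% of all counts. Both log2 fold changes were 0.19, with 95% intervals from -0.149 to 0.528 for *Mt1* and -0.157 to 0.537 for *Mt2* (adjusted p = 0.434 and 0.443 from edgeR). Without WT replicate 3 they were 0.30 for both (adjusted p = 0.157 and 0.151 from edgeR), and without WT replicate 2 they were 0.10 (*Mt2*) and 0.11 (*Mt1*). An antisense gene, *Gm45774*, overlaps an exon of *Mt2*. The genes are neighbours with similar coding sequence, so reads shared between them may be split or lost.

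The metallothionein values by sex were read after they had been seen. In females the mutant libraries lay above both WT libraries for both genes, with a difference in mean log2 CPM of 0.44 for each. In males the single mutant library lay between the 2 WT libraries, with differences of -0.061 for *Mt1* and -0.12 for *Mt2*. In a model with an interaction of genotype and sex, chosen after seeing the data, neither difference between the sexes passed (adjusted p = 0.40 for both from edgeR), nor did that of any other member or of any gene, with 1934 genes at an unadjusted p under 0.05. The mutant males are 1 library, so that group has no replicate of its own.

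Per kilobase of annotated exon, the level in WT ran in the order *Mt2*, *Mt1*, *Sgk1*, *Tsc22d3*, *Klf9*, *Nr3c1*, *Dusp1*, *Fkbp5* and *Zbtb16*. The extremes were 1320 ± 223 CPM per kb for *Mt2* and 3.99 ± 1.39 for *Zbtb16* (SD, n = 4). *Sgk1* and *Tsc22d3* (35.6 ± 3.39 and 29.0 ± 4.70), *Klf9* and *Nr3c1* (11.03 ± 3.32 and 10.9 ± 0.739) and *Dusp1* and *Fkbp5* (8.44 ± 0.739 and 7.92 ± 1.17) were neighbours whose ranges over the 7 libraries overlapped. The other neighbours in this order did not overlap. Within WT the coefficient of variation ran from 6.80% for *Nr3c1* to 34.9% for *Zbtb16*, with a median of 16.2% beside 12.8% over all genes tested.

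Between males (3) and females (4), with genotype as a covariate, none of the 9 members passed in edgeR, and none had an unadjusted p under 0.05. In the same fit 0.0191% of all genes passed, and 2.58% fell under 0.05 before adjustment. The sexes overlapped for all 9 members, where 2.41% of all genes had sexes that did not overlap. The largest member differences, male minus female, were -0.32 for *Klf9* (95% interval -0.846 to 0.215) and -0.25 for *Tsc22d3* (-0.523 to 0.0195), both with an adjusted p of 0.997 from edgeR. None passed in DESeq2, in limma-voom or in any of the other alternatives of this comparison.

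**Figure D3:**
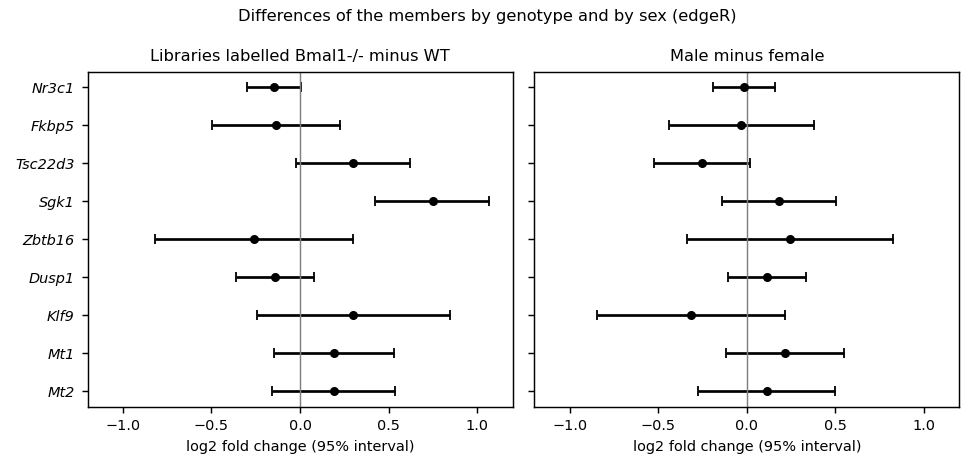
Log2 fold change of each member with its 95% interval from edgeR (x axis), libraries labelled *Bmal1*-/- minus WT on the left and male minus female on the right. The interval of *Sgk1* (0.426 to 1.07) is the one that does not include 0 in the genotype panel, and each interval in the sex panel includes 0.

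Beyond the 9 genes, 36 other genes commonly induced by glucocorticoids were read, of which 35 could be tested. *Arrdc2*, an arrestin domain gene, rose and was the only one called (background of higher calls 0.654%). It had 26.9, 31.7 and 38.2 CPM in the mutant libraries against 19.7, 17.2, 17.6 and 21.0 CPM in WT. The 3 mutant values lay above the 4 WT values, a log2 fold change of 0.77 (SE 0.131, adjusted p = 0.0406 from edgeR). Its call was kept without WT replicate 3 and lost without any other single library, with log2 fold changes from 0.63 to 0.89. In the whole list 18 were higher and 17 lower, the median log2 fold change was 0.06, and 15 had an unadjusted p under 0.05, beside 20.9% of all genes. The groups did not overlap for 13, of which 9 were higher and 4 lower, where 13.4% of all genes did not overlap in each direction. Next by p came *Nedd9*, which encodes a scaffold protein of focal adhesions, with 54.6, 50.4 and 49.0 CPM against 42.1, 41.6, 40.2 and 38.5 CPM and a log2 fold change of 0.34 (adjusted p = 0.0521 from edgeR). *Cdkn1a*, which encodes the cell cycle inhibitor p21, had 152, 159 and 139 CPM against 102, 94.96, 126 and 88.4 CPM and a log2 fold change of 0.54 (adjusted p = 0.0845 from edgeR). The groups did not overlap for either gene. Of the 17 lower genes, those with the smallest p, picked out after the values were seen, were *Cd163*, a hemoglobin scavenger receptor of macrophages, and *Tgm2*, a transglutaminase. *Cd163* had 2.24, 3.504 and 2.28 CPM against 6.503, 6.32, 4.44 and 4.34 CPM, with a log2 fold change of -1.01 (adjusted p = 0.0926 from edgeR). *Tgm2* had 140, 150 and 115 CPM against 188, 161, 266 and 178 CPM, with a log2 fold change of -0.56 (adjusted p = 0.175 from edgeR). DESeq2 called 11 of the 35, where it called 9.61% of all genes, and the fit without WT replicate 3 called 5, where it called 4.66%.

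Among 24 genes of the receptor's machinery, 22 could be tested and 1 passed. At an unadjusted p under 0.05 there was also 1 of 22, where 20.9% of all genes reached that level. The groups did not overlap for 2 of 22, both lower, where 26.9% of all genes had groups that did not overlap. *Hsd11b1*, which encodes the enzyme that regenerates active glucocorticoid inside cells, fell (background of lower calls 0.915%). It had 1.83, 1.83 and 2.97 CPM in the mutant libraries. The WT libraries had 5.99, 8.20, 5.72 and 11.6 CPM. Every mutant value was under every WT value, and the log2 fold change was -1.83 (SE 0.318, adjusted p = 0.0426 from edgeR). The call was kept without WT replicate 3 and lost without any other single library (-2.10 to -1.59). It was also lost with limma-voom (adjusted p = 0.0564) and with sex as a covariate (adjusted p = 0.0558 from edgeR). Fibroblasts are among the cells known to express this gene. Of 8 fibroblast markers 6 were lower and 2 higher, and 1, *Fbln2*, passed, with 24.1, 37.6 and 22.1 CPM against 76.3, 64.3, 82.5 and 70.4 CPM (log2 fold change -1.39, adjusted p = 0.0197 from edgeR). *Lum* was also under every WT library in all 3 mutant libraries, at 9.99, 16.1 and 8.96 CPM against 18.1 to 48.2 CPM. The sum of the 8 was 551, 2539 and 459.9 CPM in the mutant replicates and 1365 to 2073 CPM in WT, and in mutant replicate 2 the collagens *Col1a1* (640 CPM), *Col1a2* (627 CPM) and *Col3a1* (759 CPM) made up most of it. The part of these cells in the *Hsd11b1* level was not tested. The opposing enzyme *Hsd11b2* and the plasma carrier *Serpina6* were too low to test.

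The rest of the machinery had log2 fold changes of at most 0.25 in size. Those named here beside *Hsp90aa1* and *Bag1* were picked for their roles, after their values were seen. The chaperones *Hsp90aa1* (log2 fold change 0.25, adjusted p = 0.280 from edgeR) and *Hsp90ab1* (0.0018, adjusted p = 0.994), the co-chaperones *Fkbp4* (-0.074) and *Bag1* (-0.22, adjusted p = 0.274), the mineralocorticoid receptor *Nr3c2* (0.15, adjusted p = 0.611) and the coactivators and corepressors did not pass. The exporter *Abcb1a*, which pumps some glucocorticoids out of endothelial cells, was at 0.026 (adjusted p = 0.885 from edgeR). The median over the 22 genes was 0.02, and 16 were higher and 6 lower.

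Of 18 inflammatory genes that glucocorticoids commonly repress, 17 could be tested and none passed in edgeR. At an unadjusted p under 0.05 there were 3 of 17, and 3 of 17 had groups that did not overlap, neither above the shares of all genes (20.9% and 26.9%). By sign, 13 were lower and 4 higher, with a median log2 fold change of -0.52. The 3 smallest p were those of *Ptgs2*, *Ccl2* and *Ccl4*. *Ccl4*, a chemokine, had 4.80, 5.01 and 4.64 CPM against 5.20, 5.58, 9.09 and 7.61 CPM, which do not overlap, with a log2 fold change of -0.51 (adjusted p = 0.229 from edgeR). *Ptgs2*, the inducible cyclooxygenase, had 6.38, 5.06 and 4.92 CPM against 8.95, 10.1, 16.7 and 12.3 CPM, with a log2 fold change of -1.14 (adjusted p = 0.0655 from edgeR). *Ccl2*, a chemokine that draws monocytes, had 11.9, 11.1 and 8.04 CPM against 25.3, 17.5, 60.8 and 21.6 CPM, with a log2 fold change of -1.60 (adjusted p = 0.132 from edgeR). All 3 had groups that did not overlap and their highest level in WT replicate 3, the library with the most macrophage marker counts. Summed levels of the list were 128 to 149 CPM in the mutant libraries, 137 to 156 in WT replicates 1, 2 and 4 and 255 in WT replicate 3. DESeq2 called 2 of the 17 (9.61% of all genes) and the fit without WT replicate 3 called 3 (4.66% of all genes).

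Metal handling genes were read beside *Mt1* and *Mt2*, since zinc and oxidants also induce these. Of 10, 9 could be tested, none passed in edgeR, and 4 had an unadjusted p under 0.05, beside 20.9% of all genes. By sign, 3 were higher and 6 lower. The groups did not overlap for 5 of 9, beside 26.9% of all genes. Of these, 2 were higher (*Mt3* and *Slc39a14*) and 3 lower (*Hmox1*, *Slc30a1* and *Slc39a8*). *Mt3*, the brain metallothionein, had 447, 404 and 421 CPM against 374, 356, 381 and 354 CPM, a log2 fold change of 0.21 (adjusted p = 0.179 from edgeR) with groups that did not overlap. The zinc and iron importer *Slc39a14* was at 0.49 (adjusted p = 0.0797 from edgeR). *Hmox1*, which degrades heme, was at -1.34 (adjusted p = 0.157 from edgeR), with 352 to 544 CPM in the mutant libraries, 625 to 982 in WT replicates 1, 2 and 4 and 2142 in WT replicate 3, the WT library that also had the most *Mt1* and *Mt2*. *Mtf1*, which encodes the zinc-sensing factor that binds MREs, was at -0.032 (adjusted p = 0.739 from edgeR). Of these 9, DESeq2 called 3 (9.61% of all genes) and the fit without WT replicate 3 called 1 (4.66% of all genes).

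Close relatives of the members were read for comparison. Of 14, none passed in edgeR, and 7 had an unadjusted p under 0.05, beside 20.9% of all genes. By sign, 8 were higher and 6 lower, with a median of 0.05. *Tsc22d2* was at 0.32 (adjusted p = 0.0704 from edgeR), close to its relative *Tsc22d3*. *Dusp5* and *Klf10*, both induced by growth factor signaling, were at -0.92 (adjusted p = 0.0738) and -0.78 (adjusted p = 0.0746 from edgeR), beside -0.14 for *Dusp1* and 0.30 for *Klf9*. Of the 14, 5 were called by DESeq2 (9.61% of all genes) and 3 in the fit without WT replicate 3 (4.66% of all genes).

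**Figure D4:**
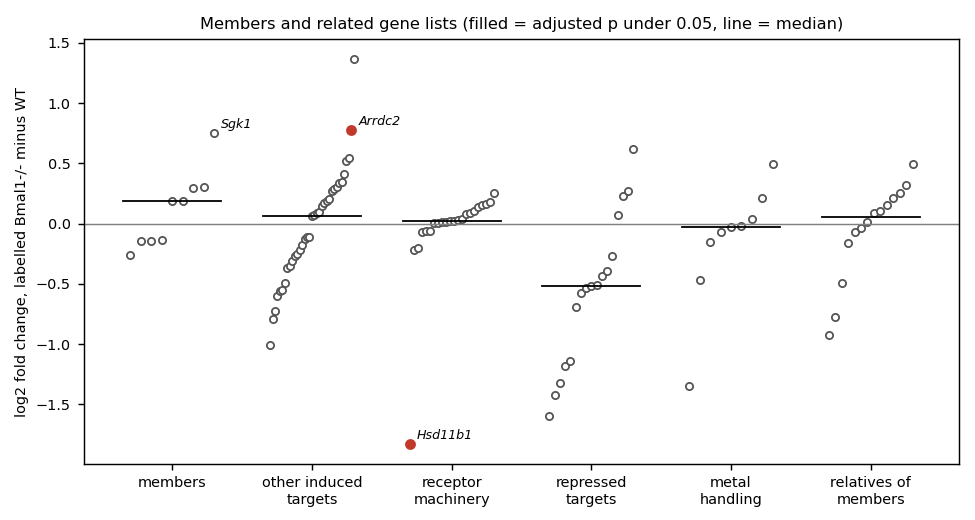
Log2 fold change (y axis, libraries labelled *Bmal1*-/- minus WT) of each tested gene in the member set and 5 related lists, with a line at each list's median and filled points for an adjusted p under 0.05. *Arrdc2* (0.77) and *Hsd11b1* (-1.83) are filled, and the median is furthest from 0 in the list of repressed targets (-0.52).

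**Figure D5:**
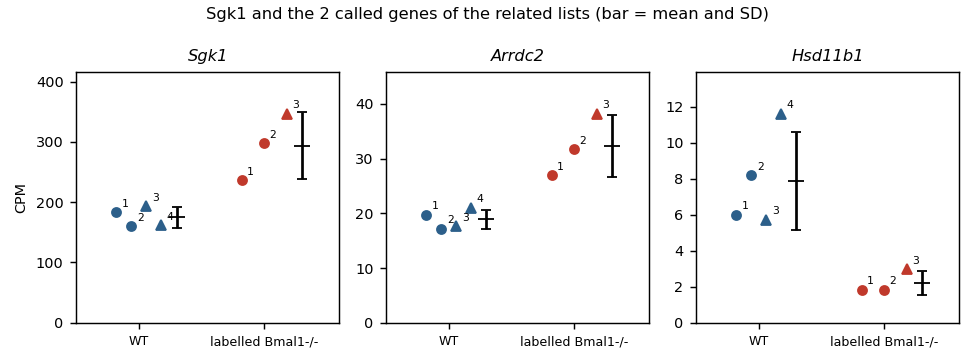
CPM (y axes, from 0) of *Sgk1*, *Arrdc2* and *Hsd11b1* by library, with circles for females, triangles for males and bars for the mean and SD. In each panel the 3 libraries labelled *Bmal1*-/- lie on one side of the 4 WT libraries, while of the 3 genes *Sgk1* did not pass (adjusted p = 0.0519 from edgeR).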

How the data were processed

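RNASeq was done on 7 libraries of contused cord, 3 labelled *Bmal1*-/- and 4 WT. Per the labels and the study's methods, the authors made stranded poly(A) libraries, checked reads with FastQC 0.10.1, aligned them with Tophat2 to GRCm38.p6 and counted them per gene with HTSeq 0.10.0 (versions from the submitters' processing notes). The deposited values are raw counts per gene, not normalized. The annotation release and the strand setting are not given in the sources used here. The table holds 21965 genes, 3039 of them without a count, and 21939 matched a symbol. Gene positions and exon lengths come from an annotation of GRCm38, the files' build. By the study's methods each library is 1 mouse. Sex was read from the F or M in each library's description, and 4 Y-linked genes were at 14.2 CPM or more in the 3 libraries marked M and under 1 CPM in the others.

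Counts were filtered with filterByExpr, scaled by TMM and tested with edgeR 4.0.16 (quasi-likelihood, R 4.3.3), genotype alone as the main fit and sex with genotype as a covariate as the second. Benjamini-Hochberg adjustment ran over all 15743 genes tested and the threshold was 0.05. Log2 CPM used a prior count of 2. Alternatives were RLE and upper-quartile scaling, other filters, DESeq2 1.42.0 (after the same filter), limma-voom 3.58.1, a covariate for sex, a replicate block and leaving out each library. The scripts were tested on simulated data. At 38529644 or more counts a library, spread between mice and not counting error limits these genes.

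The 9 genes and the lists of related and marker genes were chosen with earlier results of these data known, so that no list is independent evidence. All 9 members are named. From each related list the text names every called gene and the 3 with the smallest p, and from the tested genes the 3 closest in pattern to *Fkbp5* and *Tsc22d3*. *Nr1d1*, *Dbp*, *Cd163*, *Tgm2*, *Plin4*, *Sgk3*, *Mtf1*, *Hsp90ab1*, *Fkbp4*, *Nr3c2* and *Abcb1a* were added after their values were seen. Promoter windows are from RefSeq. No protein sequences are shown.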

Additional observations from a re-analysis of the deposited data

Results flagged for a closer look

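Of 25 genes whose 4 WT libraries were checked for 1 library far from the others, *Bag1*, a co-chaperone of HSP70 that binds the receptor, was the only one picked out. It had 165 CPM in WT replicate 3 against 127, 131 and 132 CPM in WT replicates 1, 2 and 4, and 124, 123 and 112 CPM in the libraries labelled *Bmal1*-/-. Chance picks out about 1 in 20 groups. Among the members, the same library was the lowest of all 7 for *Klf9*, *Tsc22d3* and, narrowly, *Zbtb16*, and the highest for *Dusp1* and *Mt1*.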

How the results depend on the processing

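*Nr3c1*, *Fkbp5*, *Tsc22d3*, *Sgk1*, *Dusp1*, *Klf9*, *Mt1* and *Mt2* kept their sign under all 15 alternatives of the genotype comparison. *Zbtb16* was reversed without WT replicate 4 (the leave-outs ran from -0.368 to 0.0073) and with the replicate block (0.013). DESeq2 raised the counts of called genes from 103 higher and 144 lower to 599 and 914, and called 1 member, 11 wider targets, 2 repressed targets, 3 metal genes and 5 relatives. RLE scaling called 2 wider targets. No gene of the receptor's machinery was called with limma-voom (0) or with sex as a covariate (0). Leaving out 1 library gave 30 to 291 genes higher, 27 to 439 lower, 0 to 1 members, 0 to 5 wider targets, 0 to 1 machinery genes, 0 to 3 repressed targets, 0 to 1 metal genes and 0 to 3 relatives. The highest of each came without WT replicate 3, and the lowest totals came without mutant replicate 1. The members' median difference (log2) ran from 0.10, without WT replicate 2, to 0.22. Causes of these shifts were not tested. Replicate numbers did not pair the samples (same-number correlations -0.174, 0.183 and -0.295). The replicate block called 0 genes higher and 0 lower, with 1590 at an unadjusted p under 0.05, and thus 0 wider targets and 0 machinery genes. With 3 against 4 mice, the 95% intervals of the 8 members other than *Sgk1* reached a log2 difference of nearly 0.3 or more in size.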
